A study of Mus musculus with 4 samples.

Results

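Smarca4.4 and Smarca4.6 are short hairpin RNAs (shRNAs) against the same transcript, and the comparison described here is between the day 6 library made with the one and the day 6 library made with the other. Genes were taken from chromosomes 1 to 19 where the mean log2 CPM (CPM, a count scaled to the total of its library) over the 4 libraries of the series was at least 0, which kept 12751 of the 25965 genes listed. The cells of all 4 libraries were female mouse embryonic stem cells (mESCs) of FVB/CAST F1 background, derived from FVB dams and CAST sires, expanded in 2i medium. The day 0 library is undifferentiated, while the other 3 were collected on day 6 of an undirected differentiation into serum medium. Hairpins were delivered by virus on day 2 and puromycin was added from day 3, so every day 6 library, including that of the non-silencing hairpin (Nons), had been transduced and selected. Each group holds 1 library of a cell population. No difference below can be set against the spread between replicates, and no test was possible.

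Smarca4 (also called Brg1) is an ATPase of the BAF complex, which moves and ejects nucleosomes at promoters and enhancers. In mESCs an embryonic form of the complex occupies genes bound by the pluripotency factors, and its alternative ATPase Smarca2 is scarce. An shRNA is cut to a guide strand that pairs with the target transcript and leads to its cleavage, and bases 2 to 8 of the guide, the seed, can also pair with 3' UTRs of other transcripts. Hairpins against 1 gene share their intended target but not their seed, so genes that differ between them are of interest in reading either of them.

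The guides are shown because the whole comparison rests on their difference. They are 22 bases long, written 5' to 3' with the seed in capitals, and are identical at 10 of 22 positions when counted from the 5' end:
Smarca4.4: uUUAUUACugucugacuccagu
Smarca4.6: uUGCAUAAuaguguucaucagu

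The sites they pair with in Smarca4 follow, with the bases opposite the seed in capitals:
Smarca4.4 site: actggagtcagacaGTAATAAa
Smarca4.6 site: actgatgaacactaTTATGCAa

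All 22 bases of both sites were found in the Smarca4 transcripts of GENCODE M21, whose assembly GRCm38 is that of mm10. The Smarca4.4 site lies at chr9:21703327-21703348 on the plus strand, in exon 34 of 34 and in the 3' UTR of the 3 transcripts that hold it. The Smarca4.6 site lies at chr9:21670504-21670525 on the plus strand, within coding sequence, in exon 22 of 34 in the longest transcripts. The guide of Smarca4.4 therefore targets the untranslated end of the message and that of Smarca4.6 its coding part.

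The target was lower in the Smarca4.4 library. Smarca4 stood at 7.93 log2 CPM at day 0, 7.84 with Nons, 7.04 with Smarca4.4 and 7.44 with Smarca4.6. Between the hairpins the difference, always given here as Smarca4.4 minus Smarca4.6 on the log2 scale, was -0.40, with an exact 95% counting interval of -0.45 to -0.35 from 6190 and 6338 reads. These intervals cover counting error only. Smarca2, the alternative ATPase, was at 2.08 with Smarca4.4 and 2.00 with Smarca4.6 (difference 0.08, interval -0.24 to 0.40), which counting error alone spans. Any programme that differs below goes together with a lower target level in Smarca4.4, and hairpin sequence, degree of depletion and library cannot be told apart.

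The libraries were of unequal depth. The totals recovered from the table were 47143738 reads for Smarca4.4 and 36495576 for Smarca4.6, against 45759793 for Nons and 18599402 at day 0, so 3 reads corresponded to 0.0636, 0.0822, 0.0656 and 0.161 CPM. At day 0 the markers of the labelled cell type were high, with Pou5f1 above 9 log2 CPM, Nanog at 9.96 and Zfp42 also above 9. On day 6 Pou5f1 remained at 9.45 with Smarca4.4 and 9.94 with Smarca4.6, whereas Zfp42 was at 4.52 and 4.35.

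Most genes lay close together in the hairpin libraries. The median difference over the 12751 genes was -0.03, with quartiles of -0.17 and 0.11, and 5529 were higher in Smarca4.4 against 7222 higher in Smarca4.6. At least 2-fold higher were 49 genes in Smarca4.4 (0.384% of those compared) and 31 in Smarca4.6 (0.243%). For 7 genes in each direction (0.0549%) the whole counting interval lay past 2-fold. At the lower bar of 1.5-fold, used below to describe gene lists, 307 genes (2.41%) were higher in Smarca4.4 and 242 (1.9%) in Smarca4.6.

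These genes were mostly of low level, as the plot of difference against level shows, and with 1 CPM added to every value before taking logs 9 and 7 genes stayed past 2-fold. Among the 49 higher in Smarca4.4 the median of the higher level was 1.35 log2 CPM, and among the 31 higher in Smarca4.6 it was 1.66, with 6 and 5 of them reaching a log2 CPM of 3. Genes just inside the level limit behaved like those just outside it, since 7 of the 100 genes nearest above it and 8 of the 100 nearest below it differed at least 2-fold. The mean behind the limit includes the compared libraries, so some genes met it only through the library where they were high.

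**Figure D1:**
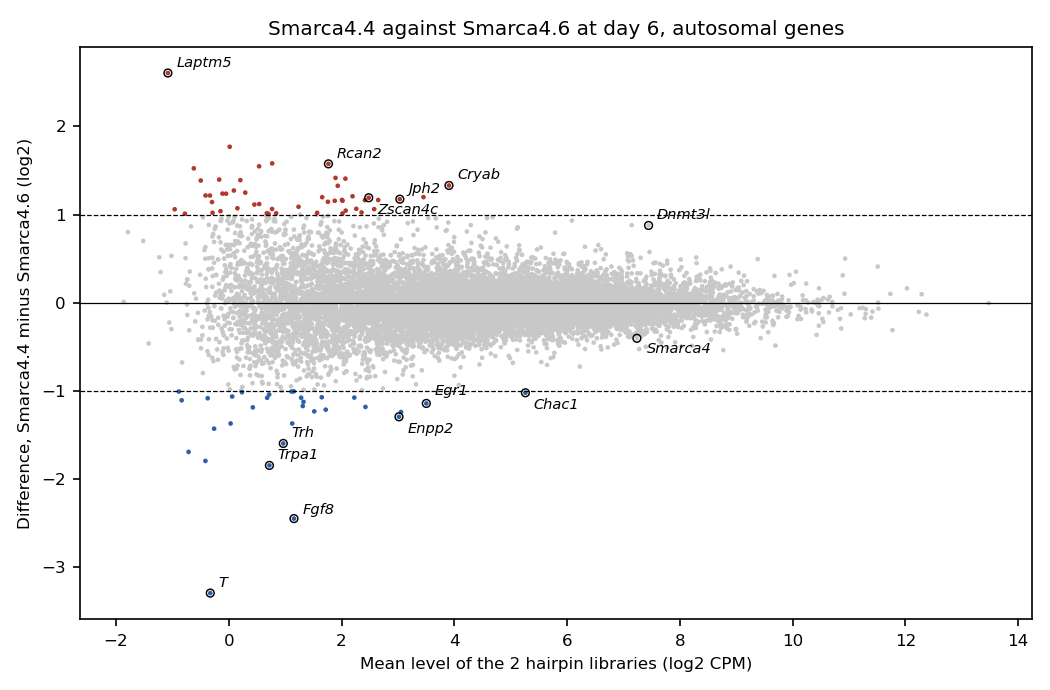
Each point is 1 of 12751 autosomal genes, with the mean log2 CPM of the hairpin libraries on the x axis and the difference, Smarca4.4 minus Smarca4.6 in log2, on the y axis. Dashed lines mark 2-fold; the 49 genes above are red, the 31 below are blue, and circled genes are named in the text, with T at -3.29 and Laptm5 at 2.60 farthest from 0.

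The genes highest in Smarca4.6 included signals and factors of the primitive streak, the region of the gastrulating embryo where mesoderm forms. The gene T (Brachyury, chr17:8434423-8442496 in mm10), the T-box factor that marks nascent mesoderm, was at 2.55 at day 0, -1.35 with Nons, -1.97 with Smarca4.4 and 1.32 with Smarca4.6. It had 12 reads against 91, a 9.80-fold difference (-3.29, interval -4.30 to -2.42). Smarca4.6 was thus the highest of the day 6 libraries. T met the level limit only through its Smarca4.6 level. In RNA from whole populations, fewer cells of a type and less RNA per cell cannot be told apart, here and throughout.

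Fgf8 (chr19:45736798-45742915), a growth factor secreted in the streak, stood at -1.90 at day 0, 0.73 with Nons, -0.07 with Smarca4.4 and 2.38 with Smarca4.6, 5.45-fold apart (-2.45, interval -2.95 to -1.97). Wnt3, the ligand needed to start the streak, was at 1.40 with Nons, 0.76 with Smarca4.4 and 1.89 with Smarca4.6 (-1.12, interval -1.54 to -0.71). For Fgf8 and Wnt3, the Nons value lay between those of the hairpins. Fgf8, like T, met the level limit only through its Smarca4.6 level. Wnt5b, a non-canonical Wnt ligand, was at 0.07, 0.20 and 1.24 in the same order (-1.04, interval -1.56 to -0.53), and it overlaps Fbxl14 on the other strand, so their reads may not be separable.

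The wider mesoderm list did not share this direction. Of its 24 members kept, 12 were higher in each library, with a median of -0.03, equal to that over all genes. Hand1, a factor of lateral mesoderm, heart and trophoblast, was higher in Smarca4.4 (4.28 against 3.45, difference 0.82, interval 0.65 to 1.00), and Dll3, a Notch ligand of presomitic mesoderm, was higher in Smarca4.6 (2.38 against 3.16, difference -0.79). T was the only member of the list past 2-fold.

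Wnt pathway genes leaned towards Smarca4.6. Of 39 kept, 27 were higher in Smarca4.6 and 12 in Smarca4.4, and the median was -0.16 against -0.03 over all genes. T, Wnt3 and Wnt5b were past 2-fold, and 8 members were past 1.5-fold, all of these in Smarca4.6. Of these, T was kept only through its Smarca4.6 level. At a mean log2 CPM of at least 3 the median was -0.08.

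The members past 1.5-fold included receptors, feedback inhibitors and factors. Axin2, a feedback inhibitor induced by beta-catenin, was at 4.61 at day 0, 2.28 with Nons, 2.20 with Smarca4.4 and 2.91 with Smarca4.6 (-0.72, interval -0.98 to -0.46). Sp8, a zinc finger factor, was at 1.24, 1.42 and 2.19 with Nons, Smarca4.4 and Smarca4.6 (-0.78). Kremen2, a receptor for Dkk inhibitors, was at 1.45, 1.03 and 2.01 in that order (-0.98). In all 3 the Smarca4.6 library was the highest of the day 6 libraries.

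The secreted antagonist Sfrp2 was also higher in Smarca4.6 (414 against 322 reads, difference -0.73, interval -0.95 to -0.52). In the other direction Wnt7b, an epithelial ligand, was at 4.55 with Smarca4.4 and 4.06 with Smarca4.6 (0.49, interval 0.34 to 0.63), and the receptor Fzd2 was at 5.79 and 5.58 (0.21). The beta-catenin gene Ctnnb1 itself differed by -0.08.

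FGF and ERK feedback genes were divided. Of 35 kept, 20 were higher in Smarca4.6 and the median was -0.06. Beside Fgf8, the immediate early factor Egr1 was at -0.63 at day 0, 2.62 with Nons, 2.93 with Smarca4.4 and 4.07 with Smarca4.6 (-1.14, interval -1.33 to -0.95). The ETS factor Etv1 (-0.81) and the feedback inhibitors Spry4 (-0.60) and Spry2 (-0.55) were higher in Smarca4.6 too. Dusp14 and Dusp1, phosphatases of MAP kinases, were higher in Smarca4.4, by 0.60 and 0.38.

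Egr1 stood apart from other immediate early genes, which respond to growth factors and to handling of the cells. Of the 31 kept in that list, 22 were higher in Smarca4.4, with a median of 0.16. Gadd45g was at 2.30 with Nons, 2.80 with Smarca4.4 and 1.59 with Smarca4.6 (1.21, interval 0.89 to 1.53). Fos had 204 reads with Smarca4.4 and 103 with Smarca4.6 (0.62, interval 0.27 to 0.97), and Hbegf, a growth factor of the EGF family, was at 5.62 and 5.11 (0.51).

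Of Hedgehog pathway genes, 10 of 13 kept were higher in Smarca4.6, with the lowest list median, -0.23, but none past 2-fold and 1 past 1.5-fold. Gli3, which encodes a transcription factor of the pathway, was at 5.34 with Smarca4.4 and 5.68 with Smarca4.6 (-0.34, interval -0.43 to -0.25). Ptch1, a receptor and target, went the other way, at 4.35 and 4.05 (0.30, interval 0.16 to 0.45). Nodal, TGF-beta and BMP pathway genes were balanced, with 27 of 54 higher in each library and a median of 0.00.

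Several genes of neural and endocrine cells were also among the 15 highest in Smarca4.6. Trpa1, an ion channel, was at 0.18 at day 0, -0.12 with Nons, -0.20 with Smarca4.4 and 1.64 with Smarca4.6 (-1.84). Trh, the thyrotropin-releasing hormone, was at 2.09, 2.16, 0.17 and 1.76 in that order (-1.60), so that Smarca4.4 was the low library there. Pcsk2, a prohormone convertase, was at 0.88 with Nons, 1.83 with Smarca4.4 and 3.01 with Smarca4.6 (-1.18), and overlaps noncoding genes on the other strand.

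The adhesion molecules Nrcam (0.90 against 2.13, difference -1.23) and Astn1 (0.44 against 1.81, difference -1.37) belonged to the same set. Enpp2, a secreted enzyme that makes lysophosphatidic acid, was at 3.05 with Nons, 2.37 with Smarca4.4 and 3.67 with Smarca4.6 (-1.29, interval -1.52 to -1.07). As lists, neural and anterior ectoderm genes (12 of 28 higher in Smarca4.4, median -0.07) and neuronal synapse and channel genes (24 of 45, median 0.02) lay near the median of all genes.

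**Figure D2:**
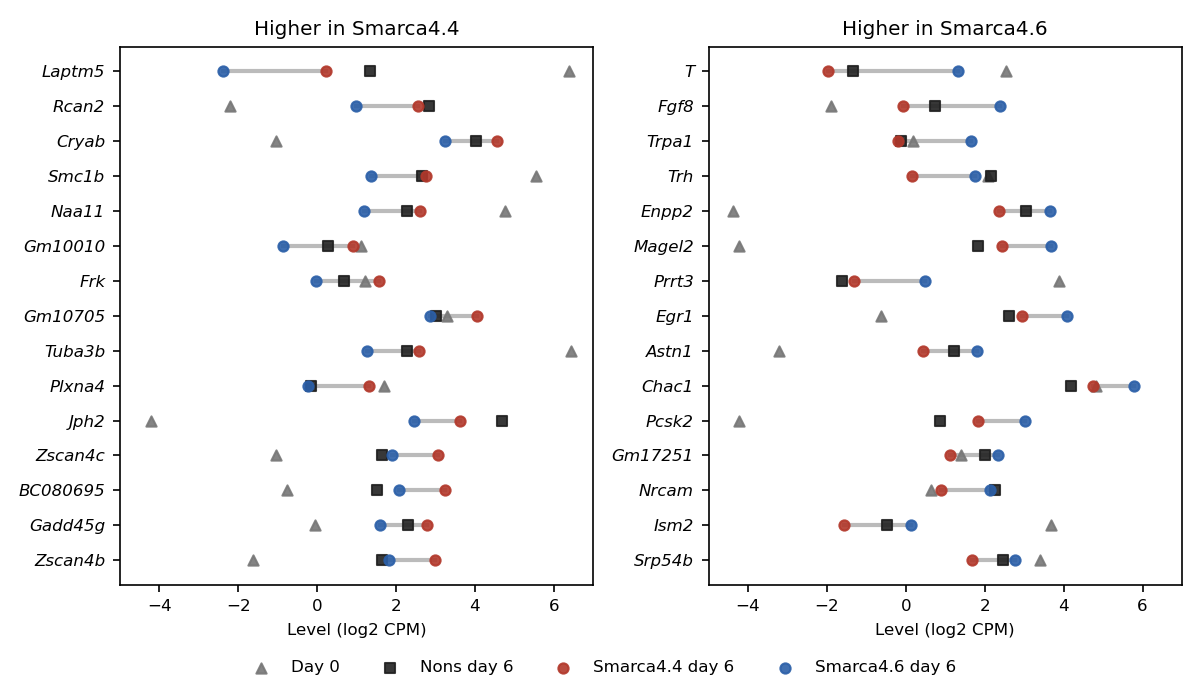
Levels in log2 CPM (x axis) of the 15 genes ranked highest in Smarca4.4 (left) and in Smarca4.6 (right), in day 0 (triangles), Nons (squares), Smarca4.4 (red circles) and Smarca4.6 (blue circles), 1 library each. Grey bars join the hairpin libraries, and the Nons square of T, at -1.35, lies near Smarca4.4 while that of Zscan4c, at 1.65, lies near Smarca4.6.

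On the side of Smarca4.4, the list with the largest median was that of the preimplantation 2-cell programme. The lists were chosen with earlier results of these data known, so this rank is a description only. These genes are transcribed in the embryo at genome activation and in a rare, fluctuating fraction of cultured mESCs. Of 15 members kept, 14 were higher in Smarca4.4, the median difference was 0.72, 2 were past 2-fold and 9 past 1.5-fold. Of these 15, 4 are Zscan4 copies and are not independent members. Among them, Zscan4e was kept only through its Smarca4.4 level. With 1 CPM added before taking logs the median was 0.47.

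Zscan4c, whose family preserves telomeres in mESCs, was at -1.05 at day 0, 1.65 with Nons, 3.08 with Smarca4.4 and 1.89 with Smarca4.6 (1.19, interval 0.91 to 1.48, 398 against 135 reads). Zscan4b had 6, 144, 376 and 130 reads in that order (1.16), and Zscan4d was at -1.22, 1.92, 3.41 and 2.69 (0.72). Day 0 was the lowest library and Smarca4.4 the highest for each.

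The copies of Zscan4 are nearly identical, and how reads were shared among them is uncertain. Summed over the 5 listed, they had 1570 reads in Smarca4.4 and 619 in Smarca4.6, with 33.3 CPM in Smarca4.4 against 12.4 in Nons and 1.72 at day 0. The log2 ratio of the sums was 0.97 (interval 0.84 to 1.11). Members on other chromosomes had the same direction, such as Tcstv1 (2.40 against 1.60, difference 0.80) and Zfp352 (1.43 against 0.54, difference 0.89), while Arg2, an arginase, was the exception (1.64 against 2.04, difference -0.40).

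The PRAME-related genes on chromosome 4, a tandem family also transcribed in early embryos, were examined after BC080695 and Gm13109 were seen past 2-fold. In the stretch from Pramel1 to Pramef12 (chr4:143394428-144408464, mm10), 29 genes are listed and 7 were kept. Of these 7, which include the genes that prompted the look, 6 were higher in Smarca4.4. Another of the 7, Gm13078, was kept only through its Smarca4.4 level. The sum over all 29 was 124 CPM in Smarca4.4 and 81.7 in Smarca4.6, with 68.6 in Nons and 91.0 at day 0. These copies are alike in sequence too, and BC080695 overlaps Gm13057 on the same strand.

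Germline genes that DNA methylation silences in somatic cells formed the next list. Of 25 kept, 22 were higher in Smarca4.4, the median was 0.53, 3 were past 2-fold and 11 past 1.5-fold, all in Smarca4.4. Both this list and the 2-cell list had a share past 1.5-fold well over the 2.41% of all genes, a share not matched for level. Median levels with Smarca4.4 were 3.27 (germline) and 2.25 (2-cell) log2 CPM, against 4.81 for genes that changed under 4-fold from day 0 to Nons. Among the 518 genes at least 4-fold lower in Nons, at a median of 1.72, 64 were past 1.5-fold in Smarca4.4.

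Smc1b, a meiotic cohesin subunit, was at 5.56 at day 0, 2.65 with Nons, 2.77 with Smarca4.4 and 1.36 with Smarca4.6 (1.41, interval 1.07 to 1.75). Dazl, an RNA-binding protein of germ cells, was at 9.60, 2.98, 3.27 and 2.35 in that order (0.92, interval 0.67 to 1.17). Hormad1, of the meiotic chromosome axis, was at 7.52, 3.15, 3.63 and 2.72 (0.90). For these genes day 0 was far above the day 6 libraries, among which Smarca4.6 was the lowest.

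Piwil2, a piRNA-binding Argonaute, was at 3.60 with Nons, 4.15 with Smarca4.4 and 3.19 with Smarca4.6 (0.96, interval 0.77 to 1.14). Sycp3, of the synaptonemal complex, was at 2.69 at day 0 and 5.89, 5.77 and 5.17 with Nons, Smarca4.4 and Smarca4.6 (0.60). Tuba3a and Tuba3b, with differences of 1.16 and 1.33, encode near-identical tubulins and may share reads. Syce1 (-0.31), Tex19.2 (-0.42) and Tdrd1 (-0.08) were the 3 members that were lower in Smarca4.4.

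The enzymes named here that place DNA methylation were higher in Smarca4.6, whereas their cofactor Dnmt3l was higher in Smarca4.4. Dnmt3l, the catalytically inactive cofactor of the de novo enzymes, was at 6.07 at day 0, 7.95 with Nons, 7.88 with Smarca4.4 and 7.01 with Smarca4.6 (0.88, interval 0.83 to 0.93, 11134 against 4696 reads). Dnmt3b, a de novo enzyme, was at 6.34, 8.99, 9.23 and 9.63 in that order (-0.40, interval -0.43 to -0.38). Dnmt3a (-0.24) and the maintenance enzyme Dnmt1 (-0.19) were also higher in Smarca4.6. Thus Smarca4.6 had the lowest Dnmt3l and the highest Dnmt3b of the day 6 libraries. Dnmt3l, Dnmt3b and Smc1b overlap other genes (Aire, 7530422B04Rik and Gm10923), as do Pou5f1 (Gm19553) and Plxna4 (Gm13851 among others), and their reads may not be separable where the strand setting is not known.

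**Figure D3:**
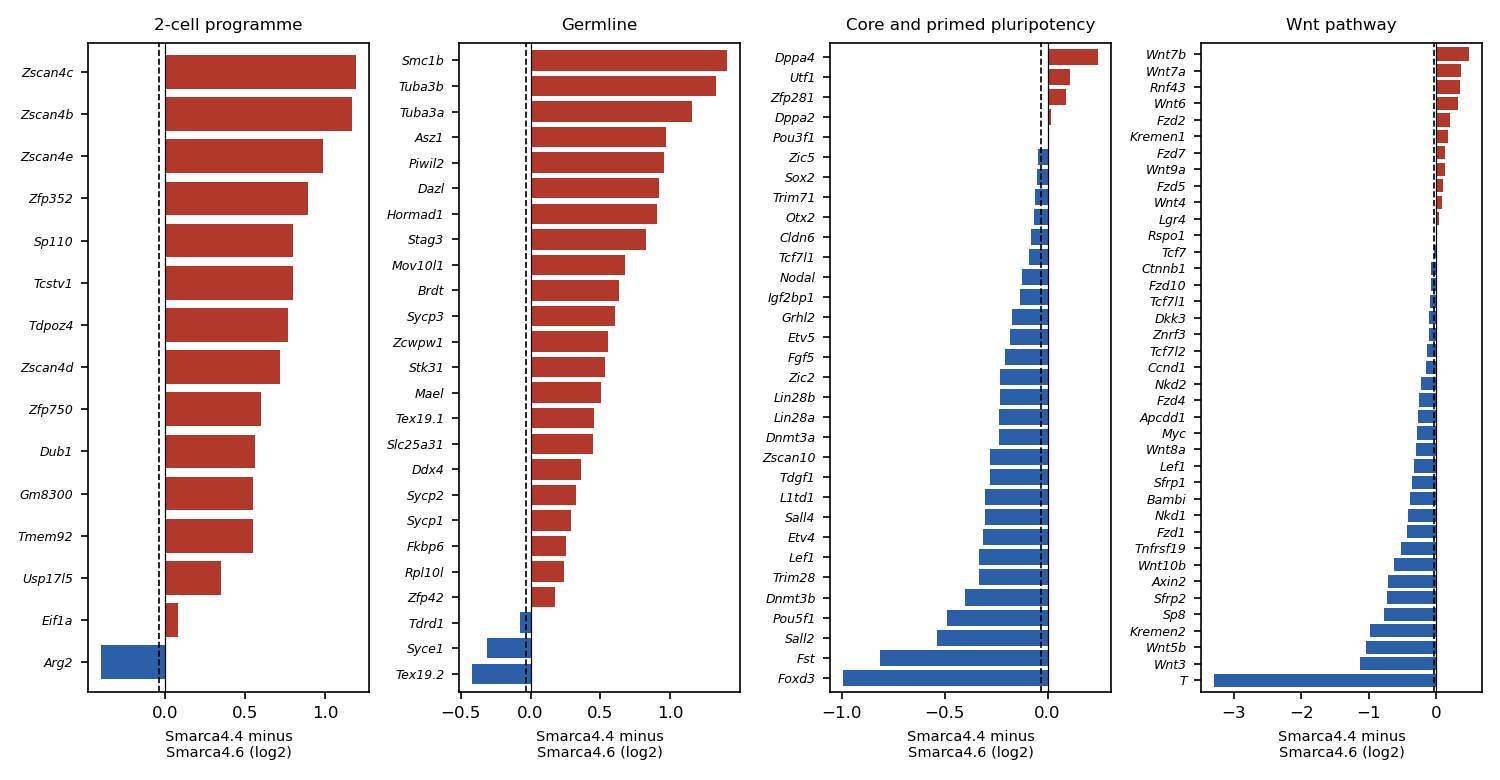
Differences in log2, Smarca4.4 minus Smarca4.6 (x axis, scaled per panel), of every kept member of 4 gene lists, with bars to the right (red) higher in Smarca4.4 and to the left (blue) higher in Smarca4.6. Dashed lines mark the median over all genes, -0.03; 14 of 15 members of the 2-cell programme and 22 of 25 germline genes point right, while 27 of 32 core and primed pluripotency genes and 27 of 39 Wnt pathway genes point left.

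The naive list and the core and primed list of pluripotency genes leaned in opposite directions. Naive genes, those of the preimplantation epiblast and of mESCs in 2i, were higher in Smarca4.4 in 22 of 29 cases, with a median of 0.15, 1 past 2-fold and 5 past 1.5-fold. Core and primed genes, those shared by pluripotent cells or typical of the postimplantation epiblast, were higher in Smarca4.6 in 27 of 32 cases, with a median of -0.22, none past 2-fold and 2 past 1.5-fold. The medians of the lists lay on opposite sides of that of all genes, and most single differences were below 1.5-fold. The naive list fell from a median level of 7.19 at day 0 to 3.54 with Nons. Of the 99 genes at least 16-fold lower in Nons than at day 0, 70.7% were higher in Smarca4.4, with a median of 0.21 and 24 past 1.5-fold. Of the 419 genes 4 to 16-fold lower, 53.2% were, with a median of 0.02. The genes that fell most thus leaned the same way, but naive genes such as Jam2 and Klf2 are among these 99. Whether the lean is particular to naive genes was not tested.

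Among naive genes, Dppa5a was at 10.60 at day 0, 7.58 with Nons, 7.40 with Smarca4.4 and 6.85 with Smarca4.6 (0.55, interval 0.50 to 0.61). Fbxo15 was at 8.19, 4.17, 4.37 and 3.63 in that order (0.74), and the factor Klf2 at 7.35, 1.33, 2.31 and 1.66 (0.66). All 3 had the day 6 levels well under day 0. Jam2, an adhesion molecule, was past 2-fold on 54 and 16 reads (1.39, interval 0.56 to 2.29).

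The central naive factors differed little, with Nanog at 5.56 and 5.53, Esrrb at 3.24 and 3.14 and Zfp42 at 4.52 and 4.35 in Smarca4.4 and Smarca4.6. Spp1 (-0.32) and Stat3 (-0.37) went against the list. In the core and primed list, Pou5f1 (Oct4) was at 9.45 and 9.94 (-0.49, interval -0.51 to -0.46), whereas Sox2 was at 5.06 and 5.11 (-0.05).

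Foxd3, a forkhead factor of primed cells, was at 2.89 at day 0, 1.94 with Nons, 1.87 with Smarca4.4 and 2.86 with Smarca4.6 (-0.99, interval -1.28 to -0.71). Sall2 was at 1.54, 4.79, 4.85 and 5.38 in that order (-0.54), and the RNA-binding protein gene Lin28a at 5.34, 8.89, 8.60 and 8.84 (-0.24). Dppa4 was the member highest in Smarca4.4, at 5.46 against 5.22 (0.25, interval 0.15 to 0.35).

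Lists of contractile cell genes had medians above that of all genes. Of 37 smooth muscle and SRF cytoskeletal genes kept, 27 were higher in Smarca4.4, with a median of 0.14, 1 past 2-fold and 3 past 1.5-fold. Of 24 cardiac and striated muscle genes, 14 were, with a median of 0.20, 1 past 2-fold and 7 past 1.5-fold, against 1 past 1.5-fold in Smarca4.6. At a mean log2 CPM of at least 3, where 4 of these 24 were left, their median was 0.01.

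Cryab, a small heat shock protein abundant in muscle, was at -1.05 at day 0, 4.04 with Nons, 4.57 with Smarca4.4 and 3.24 with Smarca4.6 (1.33, interval 1.15 to 1.51, 1120 against 345 reads). Its neighbour Hspb2 was at 2.59 and 1.43 in the hairpin libraries (1.17). Lmod1, an actin nucleator of smooth muscle, was at 3.25 with Nons, 2.79 with Smarca4.4 and 1.73 with Smarca4.6 (1.06). Whereas Cryab was highest in Smarca4.4, Lmod1 was highest in Nons.

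The actins followed Lmod1. Acta1, of skeletal muscle, was at 6.53 with Nons, 5.16 with Smarca4.4 and 4.19 with Smarca4.6 (0.97, interval 0.84 to 1.10), and Acta2, of smooth muscle, at 5.98, 4.95 and 4.15 (0.80). Jph2, which couples membranes in heart muscle, was at 4.68, 3.62 and 2.45 (1.17, interval 0.94 to 1.41). In each the order was Nons, Smarca4.4, Smarca4.6. The abundant Tagln differed by only 0.24, at 9.32 and 9.07.

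Related cell surface and cytoskeletal lists had medians in the same direction. YAP and TEAD targets were higher in Smarca4.4 in 20 of 30 cases (median 0.16), integrin and laminin subunits in 18 of 24 (0.15), and trophectoderm and simple epithelial genes in 33 of 45 (0.11). F3, tissue factor, was at 5.17 with Nons, 5.53 with Smarca4.4 and 4.69 with Smarca4.6 (0.84, interval 0.73 to 0.95).

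Mesenchymal genes had a smaller median (0.06, 25 of 45 higher in Smarca4.4). Lama1, the laminin chain of early basement membranes, was at 6.28 at day 0, 3.03 with Nons, 4.63 with Smarca4.4 and 3.82 with Smarca4.6 (0.81, interval 0.66 to 0.96). Its lowest level was in Nons. Krt18 and Krt8, keratins of simple epithelia, differed by 0.41 and 0.32. Lists overlap in part, as with Ankrd1 (0.91), which is held by the cardiac and the YAP lists.

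**Figure D4:**
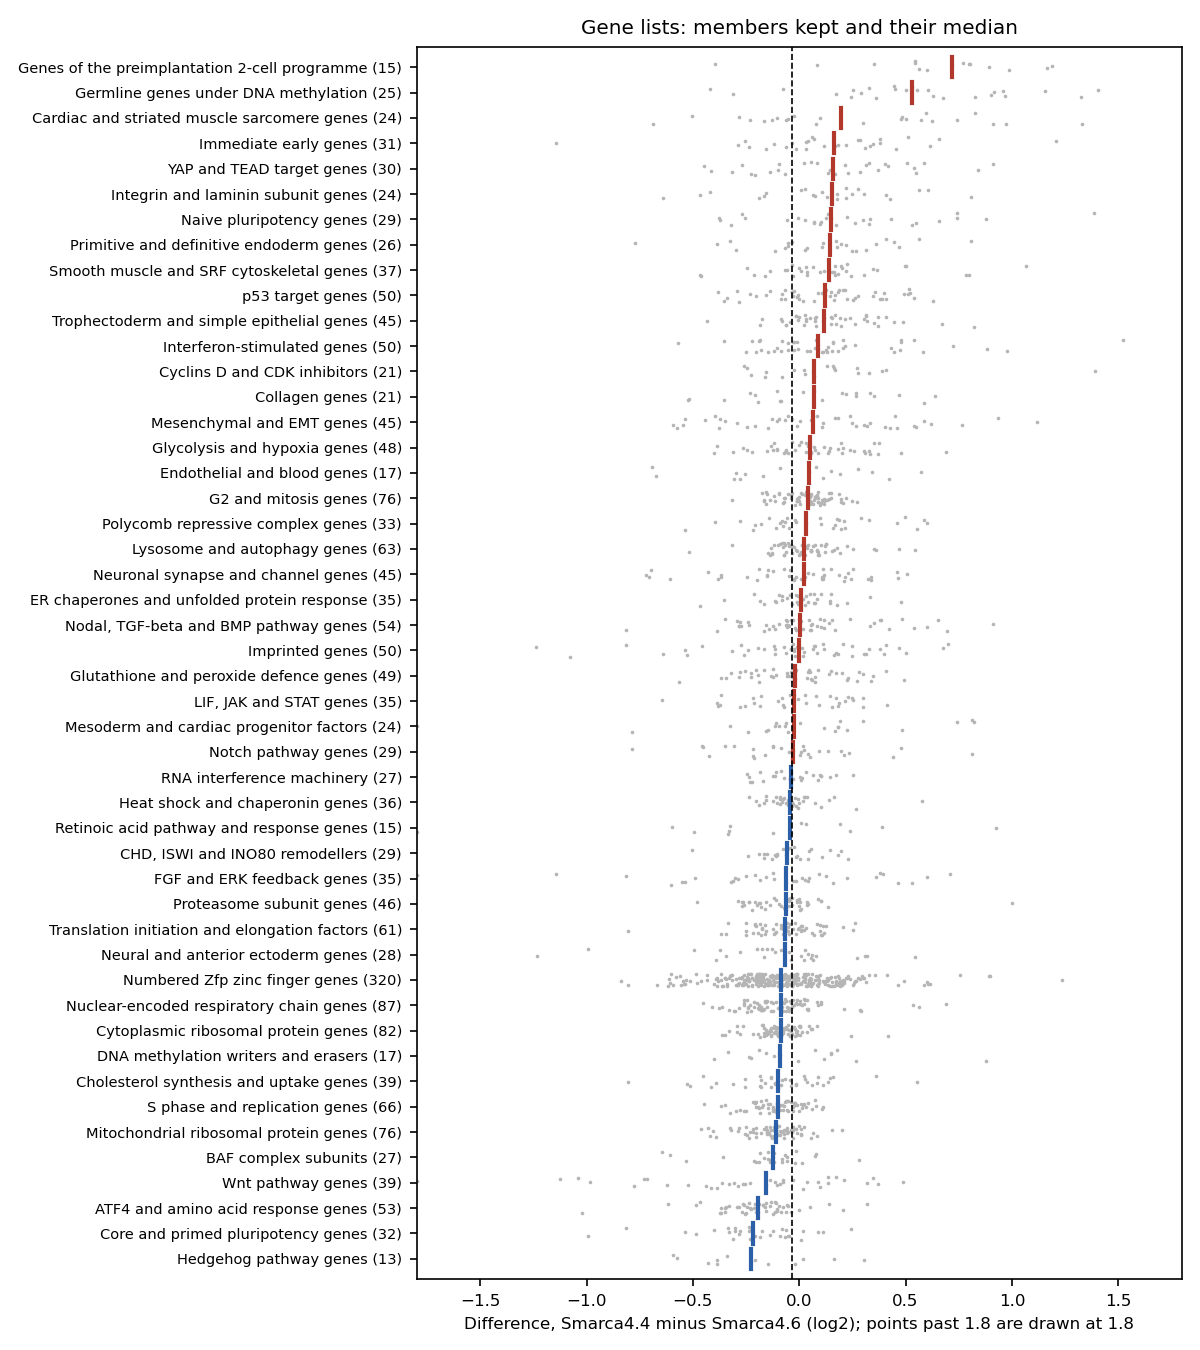
Differences in log2, Smarca4.4 minus Smarca4.6 (x axis), of the kept members (grey points) of every gene list with at least 10 of them, with the number kept in brackets and points past the axis drawn at its edge. Bars mark list medians, red above and blue below the median of all genes (dashed line, -0.03); the 2-cell list at 0.72 and the germline list at 0.53 lie farthest right, and Hedgehog genes at -0.23 farthest left.

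Genes of the amino acid and integrated stress response were higher in Smarca4.6 as a broad, small difference. Of 53 ATF4 and amino acid response genes kept, 48 were, with a median of -0.19, 1 past 2-fold and 2 past 1.5-fold. Chac1, which degrades glutathione, was at 4.82 at day 0, 4.18 with Nons, 4.75 with Smarca4.4 and 5.77 with Smarca4.6 (-1.02, interval -1.12 to -0.92, 1269 against 1994 reads). It was the gene of highest level among those past 2-fold in Smarca4.6.

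Trib3, a pseudokinase that restrains ATF4, was at 5.29 with Nons, 5.45 with Smarca4.4 and 6.06 with Smarca4.6 (-0.62, interval -0.70 to -0.53), and Atf4 itself was at 7.90, 7.97 and 8.46 (-0.49, interval -0.52 to -0.45). The enzyme Shmt2 was at 7.28, 7.14 and 7.51 (-0.37). By contrast Asns, the asparagine synthetase, was nearly level at 8.53 and 8.57, and Vegfa was higher in Smarca4.4 (0.21). ER chaperones and unfolded protein response genes had a median of 0.01, with 18 of 35 higher in Smarca4.4.

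The p53 list leaned to Smarca4.4, with 31 of 50 kept and a median of 0.12, none past 2-fold. Mdm2, the ubiquitin ligase of p53, was at 7.59 with Nons, 7.56 with Smarca4.4 and 7.05 with Smarca4.6 (0.51, interval 0.46 to 0.56), and Ccng1 was at 8.69, 8.73 and 8.34 (0.39). Trp53 itself went the other way, at 6.86, 6.89 and 7.27 (-0.38, interval -0.44 to -0.33). Interferon-stimulated genes, which double-stranded RNA can induce, had 30 of 50 higher in Smarca4.4 and a median of 0.09. Xaf1 was past 2-fold there on 52 and 14 reads, and Cxcl10 was at 4.86 and 4.14 (0.72).

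The subunits of the targeted complex were slightly higher in Smarca4.6. Of 27 BAF subunits kept, Smarca4 itself left out, 23 were, with a median of -0.12 and none past 2-fold. Smarcd1 was at 6.45 with Smarca4.4 and 6.81 with Smarca4.6 (-0.36, interval -0.42 to -0.30), and Bcl11a, of neural and lymphoid forms, at 2.06 and 2.70 (-0.64). Smarcc1, a core scaffold, differed by -0.08, and Bcl7b was highest in Smarca4.4 (0.28). RNA interference machinery, on which both hairpins depend, had a median of -0.04 over 27 genes, all within -0.25 and 0.25.

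Housekeeping lists differed by small amounts in most of their members. Mitochondrial ribosomal proteins were higher in Smarca4.6 in 67 of 76 cases (median -0.11), cytoplasmic ribosomal proteins in 70 of 82 (-0.09), and S phase and replication genes in 55 of 66 (-0.10). None of these was past 1.5-fold in either direction. G2 and mitosis genes had a median of 0.04, with 49 of 76 higher in Smarca4.4.

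Imprinted genes were divided evenly, with 25 of 50 higher in each library and a median of 0.00, yet 2 were past 2-fold in Smarca4.6 and none in Smarca4.4, and 4 and 2 were past 1.5-fold. Magel2 was at -4.22 at day 0, 1.82 with Nons, 2.44 with Smarca4.4 and 3.67 with Smarca4.6 (-1.24, interval -1.47 to -1.02). Snrpn, of the same chromosome 7 domain, was at 8.50 and 9.04 (-0.54) and overlaps Snurf. Ddc, which makes dopamine and serotonin, was at 0.94, 0.14 and 1.22 with Nons, Smarca4.4 and Smarca4.6 (-1.08, interval -1.60 to -0.56) and overlaps 1700042O10Rik. H19, a noncoding RNA, was at 11.18 and 10.68 in Smarca4.4 and Smarca4.6 (0.50) and the linked Igf2 at 4.64 and 3.97 (0.68, interval 0.53 to 0.82).

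Some of the genes highest in Smarca4.4 belonged to no list. Laptm5 (chr4:130913125-130936141), a lysosomal protein, was at 6.38 at day 0, 1.35 with Nons, 0.22 with Smarca4.4 and -2.38 with Smarca4.6, on 55 and 7 reads (2.60, interval 1.47 to 3.98). Rcan2, a regulator of calcineurin, was at -2.22, 2.84, 2.55 and 0.98 in that order (1.57, interval 1.20 to 1.97). In both, Smarca4.6 was the low library among those of day 6. Of the list members not yet described, Cdkn2c, a CDK inhibitor (1.39), Thbs2, a matrix glycoprotein (1.12), and Zfp78, a zinc finger gene (1.24), were also past 2-fold in Smarca4.4.

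Naa11, an acetyltransferase subunit, was at 4.76 at day 0 and 2.28, 2.60 and 1.19 with Nons, Smarca4.4 and Smarca4.6 (1.42). Plxna4, a semaphorin receptor, was at -0.16, 1.31 and -0.24 (1.55), so that Smarca4.4 was the high library. Frk, a tyrosine kinase, was at 0.67, 1.56 and -0.02 (1.58, interval 1.04 to 2.15).

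Nons fell between the hairpins for 34 of the 49 genes higher in Smarca4.4, above both for 9 and below both for 6. Of the 31 genes higher in Smarca4.6, it fell between for 19, above both for 4 and below both for 8. It was nearer to Smarca4.4 for 32 of the 49 and for 17 of the 31. Neither hairpin was the nearer to Nons throughout.

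Genes that move during differentiation were sorted by their change from day 0 to Nons, 2 libraries that the comparison does not use except in the level limit. The 518 genes at least 4-fold lower in Nons had a median difference of 0.04, with 17 past 2-fold on the side of Smarca4.4 and 9 on that of Smarca4.6. Among the 1326 genes at least 4-fold higher the median was 0.01, with 12 and 7 past 2-fold, and among the remaining 10907 it was -0.04, with 20 and 15. Shares past 2-fold were 5.02%, 1.43% and 0.321%, and the median levels with Smarca4.4 were 1.72, 3.41 and 4.81 log2 CPM.

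The 99 genes at least 16-fold lower in Nons than at day 0 had the largest median of the bins. It was 0.21, 70.7% were higher in Smarca4.4, and 12.1% were past 2-fold, 8 in Smarca4.4 and 4 in Smarca4.6. These genes were of low level on day 6, with a median of 0.74 log2 CPM with Smarca4.6 against 5.03 for genes that changed under 2-fold, and they met the level limit largely through day 0. Since genes past 2-fold were mostly of low level, their share is not comparable between bins of unequal level. At the other end, the 438 genes at least 16-fold higher in Nons had a median of 0.01.

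**Figure D5:**
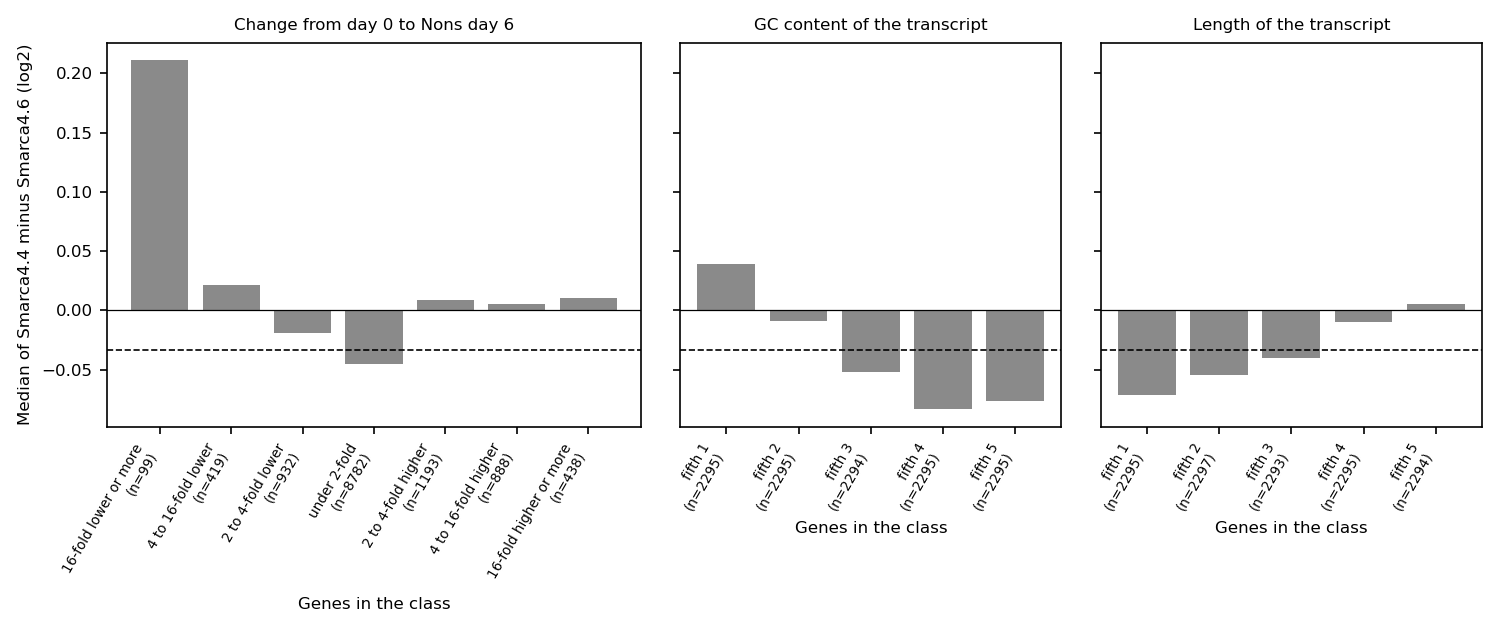
Bars give the median difference in log2, Smarca4.4 minus Smarca4.6 (y axis), of genes binned by their change from day 0 to Nons (left), by the GC content of the longest transcript (middle) and by its length (right), with 5 bins of equal size ordered from low to high and n the number of genes. The dashed line is the median over all genes, -0.03; the bin at least 16-fold lower in Nons reaches 0.21, and medians run from 0.04 in the bin of lowest GC content to -0.08 in the highest.

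The difference also moved with base composition and length, which were known for 11474 of the genes. Across genes, which are not independent replicates, Pearson's r with GC content was -0.14 and with log2 length 0.07, and over the 8405 genes with a mean log2 CPM of at least 3 these were -0.23 and 0.15. In 5 bins of equal size by GC content the medians ran from 0.04 (lowest GC) to -0.08, and in 5 bins by length from -0.07 (shortest) to 0.01. These spans are small beside the 2-cell and germline medians but as large as those of the ribosomal lists.

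The 2-cell and germline lists were low in GC, with medians of 44.4% and 45.0% against 50.2% over all genes. When each gene was set against the median of its own GC class, their medians were 0.75 and 0.49. Numbered Zfp genes, with a GC content of 44.5%, had a median of -0.09, which lay below that of genes of like GC content. With GC content held in the same way, mitochondrial and cytoplasmic ribosomal proteins had medians of -0.13 and -0.08. ATF4 and naive genes were at -0.16 and 0.16, and G2 and mitosis genes, at 0.04 before, were at 0.01. Whether the length of transcripts or fragments played a part in the smaller list medians was not tested.

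Transcripts with a match to a guide seed in the 3' UTR were compared, since such matches are where unintended pairing would be looked for. The longest annotated 3' UTR was used for 10865 of the genes. The match to Smarca4.4 is GTAATAAA and that to Smarca4.6 is TTATGCAA, each the complement of the seed followed by A, searched on the transcript strand only, and 29 genes held both. They occurred in 736 genes (6.77%) and 295 genes (2.72%), against 6.33% and 2.70% of the 18620 listed genes with a 3' UTR.

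The 707 genes with only the Smarca4.4 match had a median difference of 0.00, the 266 with only the Smarca4.6 match 0.04, and the 9863 with neither -0.04. Genes with either match therefore had higher medians than genes with neither. Their 3' UTRs were longer, with medians of 2256 and 2816 bases against 1292, and their GC content was lower, at 46.8% and 45.4% against 50.6%.

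Among genes in the longest of 4 equal bins of 3' UTR length, the medians were 0.021, 0.041 and 0.005 for genes with only the Smarca4.4 match, only the Smarca4.6 match and neither. In the next longest bin they were -0.002, 0.024 and -0.022, and in the one after it -0.007, 0.064 and -0.050. They were -0.087, -0.059 and -0.070 in the shortest bin, where genes with the Smarca4.4 match thus lay below those with neither. Only 14 genes there had the Smarca4.6 match alone. When each gene was set against its GC class, the medians were -0.026 with only the Smarca4.4 match and -0.008 with only the Smarca4.6 match. Genes with neither match had -0.035 on the same scale, below both. None of the 707 genes and 2 of the 266 (0.752%) were past 2-fold, against 0.659% of the 9863 genes with neither match.

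No chromosome stood far from the rest. Medians by autosome ran from -0.08 on chromosome 17 to 0.00 on chromosome 12, and genes past 2-fold were spread over all 19 autosomes, from 1 on chromosomes 5 and 10 to 9 on chromosome 11.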

How the data were processed

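Reads were paired-end. The authors removed adapters (trim_galore) and mapped to mm10, masked where FVB and CAST differ. HISAT2 is named in the submitters' processing notes, and the methods allow for tophat as well. Genes were quantified in SeqMonk; the strand setting was not given in the sources used here. The deposited values are log2 CPM per gene and library. Groups came from the sample titles, since the genotype field gives Smarcc knockdown for every day 6 library, also for Nons.

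Values were whole multiples of 1 step, with 0 reads written as 0.9 of a read, which gave reads and totals (100% of values up to 1000 reads whole within 0.05; at least 99.9% of all). Differences used the deposited log2 values. Intervals are exact Clopper-Pearson 95% intervals and cover counting error only. The members and the 50 gene lists were chosen with earlier results of these data known. Older symbols were matched through RefSeq synonyms. Genes named are Smarca4, Smarca2, the 15 highest each way by the interval bound nearest 0, list members past 2-fold, and the list members with the largest differences each way; others were chosen after their values were seen. Length, GC content and 3' UTRs came from GENCODE M21, matched by symbol and position for 87.2% of the genes. Alternatives were other level limits, 1 CPM added, centring, other classes and seed lengths, and, chosen after seeing the data, a 1.5-fold bar and GC classes (20 of equal size). Calculations were tested on simulated reads. The versions were 3.11.15 for Python, 2.3.3 for pandas, 2.4.6 for numpy, 3.10.9 for matplotlib and 1.17.1 for scipy.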

Additional observations from a re-analysis of the deposited data

How the results depend on the processing

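No paired analysis was possible because no group has a second library, and the labels number every library 3. Of 101 alternative values for the main results, 79 stayed within the spread set for them, 21 moved and 1 reversed. The 80 genes at least 2-fold apart (49 higher in Smarca4.4, 31 in Smarca4.6) became 5 (4 and 1) at a mean log2 CPM of at least 3, 16 (9 and 7) with 1 CPM added, 14 (7 and 7) where the whole interval had to lie past 2-fold, and 1914 (1065 and 849) with no level limit. With no level limit the median over all genes was -0.16, where 6057 genes had 0 reads in both and written values that differ by -0.37. The 2-cell median was 0.47 with 1 CPM added and 0.0820 at a mean of at least 3, where 1 member was left. The class at least 4-fold higher in Nons had 0.0402 when centred on the autosomal median and 0.0216 with GC content held. The class lower in Nons had 0.00239 with 2-fold limits, and the class under 4-fold had -0.0448 with 2-fold limits and -0.00558 when centred. With GC content held, genes with only the Smarca4.4 seed match had -0.0262, and those with only the Smarca4.6 match reversed in sign to -0.00795. Both values stayed above that of genes with neither match, -0.0348. Beyond those stated, the cause was not tested. The 1.5-fold bar and the GC classes were chosen after seeing the data. Among 84 alternative values for 42 named genes, 72 stayed within their intervals and none changed sign; with 1 CPM added T was at -1.48 and Laptm5 at 0.86. Depth and 1 library a group limit all of these, so genes of low level are the least certain.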

Other observations

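All 13 protein-coding genes of the mitochondrial genome, which the autosomal comparison left out, were higher in Smarca4.4 than in Smarca4.6. The median difference was 0.21 and the range ran from 0.05 to 1.11. The highest was mt-Atp6, a subunit of ATP synthase, at 4.97 against 3.85 log2 CPM on 1475 and 528 reads. It overlaps mt-Atp8 and mt-Co3 on the same strand, so their reads may not be separable. The GC content of the 13 genes ran from 31.9% to 41.1%. The autosomal bin of lowest GC content, up to 44.3%, had a median of 0.04. Whether GC content played a part here was not tested. Mitochondrial reads made up 1.35% of the listed reads in Smarca4.4, 1.12% in Smarca4.6, 1.20% in Nons and 2.19% at day 0. Their nuclear-encoded partners in the respiratory chain leaned the other way, with 66 of 87 higher in Smarca4.6 and a median of -0.09. All autosomal genes compared leaned that way too, with 7222 of 12751 higher in Smarca4.6 and a median of -0.03. Centred on that median, the list was at -0.05.

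Of the 11732 autosomal genes below the level limit, counting intervals lay wholly past 2-fold for 38 in favour of Smarca4.4 and 34 in favour of Smarca4.6. Many of these had 0 or 1 read in the lower hairpin library. The following were chosen after their values were seen. Sox1, a factor of neural progenitors, had 15 reads at day 0, 9 with Nons, 140 with Smarca4.4 and 30 with Smarca4.6, a log2 difference of 1.85 (interval 1.28 to 2.47). Gm13083, of the PRAME-related stretch on chromosome 4, had 1, 14, 62 and 10 reads in that order (2.26, interval 1.29 to 3.39). Kcnj9, a potassium channel subunit, had 7, 31, 11 and 56 reads (-2.72, interval -3.80 to -1.77), and Msc, a bHLH factor, had 23, 16, 8 and 35 (-2.50, interval -3.82 to -1.36). The neural list of the autosomal comparison had 12 of 28 members higher in Smarca4.4 and a median of -0.07, near that of all genes.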
